A study of Mus musculus with 18 samples.

Results

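*Trem2* and 9 genes linked to lipid handling in macrophages were measured by bulk RNA-Seq in the macrophage subsets of mouse liver metastasis. The 10 genes were taken by symbol, as *Trem2*, *Apoe*, *Lpl*, *Gpnmb*, *Spp1*, *Fabp4*, *Fabp5*, *Lgals3*, *Abca1* and *Abcg1*, and all 10 were present among the 13759 genes of the macrophage count table. In the study, MC38 colon adenocarcinoma cells were injected into the spleen of C57BL/6J mice, and liver metastases (LM) and the metastasis-free liver (MFL) were collected. Metastasis-associated macrophages (MAMs) of female mice were sorted from LM as lin- CD45+CD11b+ cells with high or low F4/80, with 3 libraries of F4/80high MAMs and 3 of F4/80low MAMs. The study's results text calls the second subset F4/80int, and its sorting methods, like the labels, F4/80low. Both subsets came from tumor-bearing liver without any further treatment, and neither macrophages of MFL nor of healthy liver were analysed here. The other 12 libraries of the series held NK cells and type 1 innate lymphoid cells (ILC1s), and they are described last. MC38 is a single transplanted cell line, so the data describe this model only.

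Lipid-associated macrophages are a macrophage state first described in adipose tissue and since found in atherosclerotic plaques, in the steatotic liver and in tumors. TREM2 is a surface receptor that binds lipids, lipoproteins and cell debris and signals through the ITAM adaptor DAP12 (encoded by *Tyrobp*), and cells of this state typically take up, store and export lipid. Cholesterol that enters the cell is sensed as oxysterol by the liver X receptors (LXRs), nuclear receptors that induce the efflux transporters ABCA1 and ABCG1 and the lipid acceptor apolipoprotein E, while fatty acids are carried by the chaperones FABP4 and FABP5, whose genes are targets of the PPAR nuclear receptors. Osteopontin (*Spp1*), galectin-3 (*Lgals3*) and the lysosome-associated glycoprotein GPNMB are further products often used to mark the state.

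The promoters of 3 of the genes are shown, chosen with their values known, as those of the receptor *Trem2*, of *Abca1* with the largest rise and of the fatty acid chaperone gene *Fabp5*. Each sequence is the 250 bases before the start of the canonical GENCODE vM39 transcript on GRCm39, written 5′ to 3′ on the gene's own strand, and capitals mark the motifs found. They lie at chr17:48653179-48653428 (+ strand) for *Trem2*, at chr4:53159901-53160150 (− strand) for *Abca1* and at chr3:10077352-10077601 (+ strand) for *Fabp5*.
Trem2: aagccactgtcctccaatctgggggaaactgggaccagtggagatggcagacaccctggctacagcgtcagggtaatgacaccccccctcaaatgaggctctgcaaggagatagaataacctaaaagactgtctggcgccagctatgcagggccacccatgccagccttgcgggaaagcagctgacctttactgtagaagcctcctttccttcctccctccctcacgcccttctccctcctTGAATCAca
Abca1: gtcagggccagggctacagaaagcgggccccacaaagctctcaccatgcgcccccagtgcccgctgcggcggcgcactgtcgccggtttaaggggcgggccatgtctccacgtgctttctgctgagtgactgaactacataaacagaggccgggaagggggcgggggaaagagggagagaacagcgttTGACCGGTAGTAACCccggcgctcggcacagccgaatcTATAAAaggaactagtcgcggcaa
Fabp5: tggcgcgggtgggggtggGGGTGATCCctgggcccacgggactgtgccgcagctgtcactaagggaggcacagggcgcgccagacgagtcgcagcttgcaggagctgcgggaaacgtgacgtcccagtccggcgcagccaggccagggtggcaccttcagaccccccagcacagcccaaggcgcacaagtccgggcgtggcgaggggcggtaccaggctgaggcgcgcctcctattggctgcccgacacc
The *Abca1* window held an LXR direct repeat, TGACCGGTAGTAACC, whose first base lies 62 bases before the start, and a TATA box (TATAAA, searched on the gene's strand only) at 24 bases. The LXR motif was searched on both strands as the half-sites GGTNA and GGTCA in this order, 5 bases apart, with N for any base, and 28 of 21770 protein-coding promoters of the same length held it (0.129%). The *Trem2* window matched a loose AP-1-type motif (TGANTCA), as TGAATCA at 9 bases, a motif found in 6.17% of promoters. The motif leaves the central base open and is looser than the AP-1 consensus, so this match is not called an AP-1 site. The *Fabp5* window held the NF-kB motif GGGNNNTCC, as GGGTGATCC at 232 bases, which 15.6% of promoters also held. G and C made up 56% of the bases in *Trem2*, 62% in *Abca1* and 71.2% in *Fabp5*. None of the 3 windows held an E-box of the MiT/TFE type (TCANGTGA, in 3.31% of promoters), a PU.1-type site (GAGGAAGT, in 2.08%) or a CEBP site (TTGCNNAA, in 9.34%). These matches describe letters in a window and were not tested for binding.

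Library totals lay between 21278959 and 32267015 counts, and levels are given as CPM, which are counts relative to the library total after scaling of the libraries by the TMM method. Log2 CPM correlated more closely within a subset (r from 0.982 to 0.985) than between subsets (0.899 to 0.922), and no library stood apart in these correlations. *Adgre1*, which encodes F4/80, was at 958 ± 187 CPM (SD, n = 3) in F4/80high MAMs and at 146 ± 19.0 CPM in F4/80low MAMs, so the RNA followed the gate. Subsets were compared with edgeR's quasi-likelihood test, and a gene was called when its p-value, adjusted by the Benjamini-Hochberg method over all 13759 genes, was under 0.1. Every edgeR p-value below is so adjusted. The labels do not tie the libraries to separate mice, so these p-values measure the spread between these samples, which may be technical. In sorted bulk samples, fewer cells that express a gene and less RNA of it per cell cannot be told apart.

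The 10 genes did not move as one block. *Trem2*, *Apoe* and *Abca1* rose in F4/80high MAMs. *Fabp4*, *Fabp5*, *Lgals3* and *Abcg1* fell, with each F4/80high library below each F4/80low library. *Gpnmb* and *Spp1* were also called lower, but with overlapping libraries, and *Lpl* was not called. In all, 3 genes were called higher, against 27.8% of all genes tested, and 6 lower, against 27.1%, in a comparison in which 54.9% of all genes were called. With a change of at least 2-fold asked as well, 7 passed (22% of all genes), 3 higher (11.1%) and 4 lower (11%). The libraries did not overlap for 7 of the 10 (58.4% of all genes), 3 above (29.8%) and 4 below (28.6%). Their median log2 fold change was -0.65, with a range from -2.74 to 2.17, beside a median of 0.01 over all genes.

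**Figure D1:**
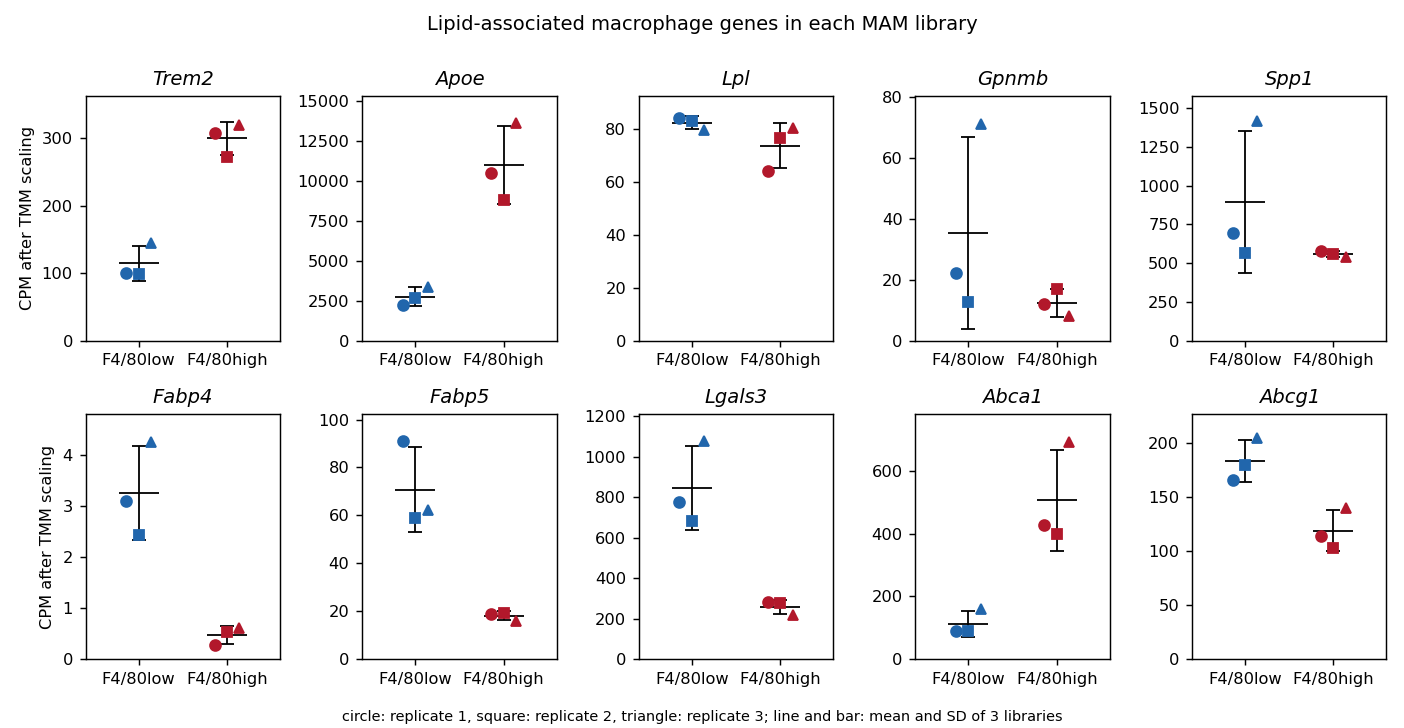
CPM after TMM scaling (vertical axes from 0, a separate scale per gene) of the 10 genes in each library of F4/80low (blue) and F4/80high (red) MAMs, with the mean and SD of 3 libraries. The F4/80high points sit above all F4/80low points for Trem2, Apoe and Abca1 and below them for Fabp4, Fabp5, Lgals3 and Abcg1, while Gpnmb, Spp1 and Lpl overlap.

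*Trem2* (ENSMUSG00000023992, GRCm39 chromosome 17, 48653429 to 48661175, + strand) was at 308, 272 and 319 CPM in F4/80high replicates 1, 2 and 3 and at 101, 98.4 and 145 CPM in the F4/80low replicates. All 3 F4/80high libraries exceeded the highest F4/80low library. The log2 fold change was 1.39 ± 0.16 (standard error; adjusted p = 0.000194, edgeR), a 2.62-fold difference. Its signalling partner moved the other way. *Tyrobp*, the DAP12 gene, was at 428 ± 33.0 CPM in F4/80high and 549 ± 34.4 CPM in F4/80low MAMs, a log2 fold change of -0.36 ± 0.10 (adjusted p = 0.0149, edgeR). Per length of transcript, there were 0.390, 0.388 and 0.393 *Trem2* transcripts for each *Tyrobp* transcript in the F4/80high libraries and 0.104, 0.106 and 0.138 in the F4/80low libraries. The receptor was thus the rarer RNA of the pair in all 6 libraries, and the ratio was 3.40-fold higher in F4/80high MAMs (exact two-sided permutation test, p = 0.1, or 0.114 adjusted over the 8 ratios computed). With 3 libraries against 3, 0.1 is the smallest p this test allows. Per length and relative to *Adgre1*, the gene of the gate, *Trem2* was lower in F4/80high MAMs. Its ratio was 0.980 ± 0.118 against 2.43 ± 0.51, and that of *Apoe* 17.6 ± 0.66 against 29.0 ± 4.21 (each p = 0.1, adjusted 0.114, exact permutation test). *Adgre1* itself rose more than either, by 2.71 on the log2 scale.

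*Apoe* (ENSMUSG00000002985, chromosome 7, 19430034 to 19434947, − strand), the gene of the lipid acceptor that is also a ligand of TREM2, was the most abundant of the 10. It was at 10500, 8813 and 13650 CPM in the F4/80high libraries and at 2221, 2684 and 3363 CPM in the F4/80low libraries. The groups did not overlap, and the log2 fold change was 2.00 ± 0.21 (adjusted p = 0.000122, edgeR), a 3.99-fold difference. *Apoe* alone took 0.953% to 1.41% of all counts in F4/80high and 0.210% to 0.313% in F4/80low MAMs. It made up 83.7% to 87.2% of the counts of the 10 genes in the first subset and 51.1% to 60.3% in the second. Summed over the 10 genes, the share of counts was 1.14% to 1.62% against 0.401% to 0.612%. Without *Apoe*, the sums overlapped, at 0.186% to 0.208% against 0.173% to 0.299%, so the higher sum in F4/80high MAMs rested on *Apoe*. Per length, *Apoe* exceeded its receptor gene *Trem2* by 16.1-fold to 21.3-fold in F4/80high and by 11.0-fold to 13.6-fold in F4/80low libraries (exact permutation test, p = 0.1, adjusted 0.114). These ratios rest on the canonical transcript of 2181 bases, while the 29 protein-coding *Apoe* transcripts of the annotation run from 456 to 3088 bases, and a shorter one would give higher ratios. With the longest, they would be 11.4 to 15.1 and 7.78 to 9.61, and the difference between the subsets does not depend on this choice.

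The efflux transporters parted. *Abca1* (ENSMUSG00000015243, chromosome 4, 53030787 to 53159900, − strand), whose product loads cholesterol onto lipid-poor apolipoproteins, was at 428, 399 and 694 CPM in F4/80high and at 88.7, 88.7 and 161 CPM in F4/80low libraries. Replicate 3 was the highest library in both subsets, and the groups did not overlap. The log2 fold change of 2.17 ± 0.29 (adjusted p = 0.000509, edgeR) was the largest rise among the 10 genes, 4.50-fold. *Abcg1* (ENSMUSG00000024030, chromosome 17, 31276649 to 31336969, + strand), whose product exports cholesterol to HDL particles, was at 115, 103 and 140 CPM against 166, 180 and 205 CPM. Here the F4/80high libraries were the lower ones, by a log2 fold change of -0.63 ± 0.13 (adjusted p = 0.00473, edgeR), or 1.54-fold. Per length, *Abca1* RNA exceeded *Abcg1* RNA in each F4/80high library, with ratios of 2.13, 2.21 and 2.82, and stayed under it in each F4/80low library, with 0.303, 0.280 and 0.446. This order was reversed between the subsets, with a 7.04-fold difference of the ratio (exact permutation test, p = 0.1, adjusted 0.114). Whether the LXR repeat in the *Abca1* window shown above has a part in this difference was not tested. Within the subsets the transporters nevertheless deviated together, with r = 0.923 between their deviations from the group means over 6 libraries, which is a description of few points from shared libraries.

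Both fatty acid chaperones fell in F4/80high MAMs. *Fabp5* (ENSMUSG00000027533, chromosome 3, 10077602 to 10081674, + strand) was at 19.0, 19.3 and 16.0 CPM against 91.0, 58.9 and 62.4 CPM in the F4/80low libraries. The lowest F4/80low library lay well above the highest F4/80high library. The log2 fold change was -1.97 ± 0.17 (adjusted p = 5.7e-05, edgeR), 3.92-fold. *Fabp4* (ENSMUSG00000062515, chromosome 3, 10268785 to 10273737, − strand), the chaperone known from adipocytes and its neighbor on the chromosome, was scarce, with 6, 15 and 19 counts against 94, 71 and 98. In CPM these were 0.270, 0.531 and 0.616 against 3.09, 2.42 and 4.24, without overlap. Its log2 fold change of -2.74 ± 0.38 (adjusted p = 0.000576, edgeR) was the largest of the 10 genes in either direction, on the fewest counts. None of the 6 adipocyte markers looked for (*Adipoq*, *Plin1*, *Cidec*, *Lep*, *Cfd* and *Retn*) was among the genes of the table. *Fabp5* exceeded *Fabp4* per length by 35.6-fold to 96.1-fold in F4/80high and by 20.2-fold to 40.4-fold in F4/80low libraries, a ratio that overlapped between the subsets (exact permutation test, p = 0.2, adjusted 0.2). *Fabp5* also has a processed pseudogene, *Fabp5l2*, which was not among the genes of the table, and reads shared with it could not be assessed.

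*Lgals3* (ENSMUSG00000050335, chromosome 14, 47605208 to 47623624, + strand), the gene of the glycan-binding lectin galectin-3, was at 280, 275 and 217 CPM in F4/80high and at 775, 682 and 1077 CPM in F4/80low libraries. All F4/80low libraries were above all F4/80high libraries, with a log2 fold change of -1.71 ± 0.18 (adjusted p = 0.000145, edgeR), or 3.28-fold. *Trem2* and *Lgals3*, both often used as markers of the lipid-associated state, thus exchanged their order. Per length the *Trem2* to *Lgals3* ratio was 1.39, 1.25 and 1.86 in F4/80high and 0.164, 0.182 and 0.170 in F4/80low libraries, 8.60-fold apart (exact permutation test, p = 0.1, adjusted 0.114). The *Spp1* to *Lgals3* ratio was 1.35 ± 0.16 against 0.626 ± 0.163, 2.20-fold apart (exact permutation test, p = 0.1, adjusted 0.114).

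*Spp1* (ENSMUSG00000029304, chromosome 5, 104582165 to 104589235, + strand), the osteopontin gene, was at 578, 557 and 537 CPM in F4/80high and at 696, 563 and 1415 CPM in F4/80low libraries. F4/80low replicate 3 stood far above the other 5 libraries, and F4/80low replicate 2 lay within the F4/80high range. The log2 fold change was -0.68 ± 0.30 (adjusted p = 0.0958, edgeR), just inside the threshold. Without F4/80low replicate 3 it was -0.17 (adjusted p = 0.276), and the call was also lost without F4/80high replicate 1 (0.158), 2 (0.174) or 3 (0.182), under DESeq2 (0.181), under limma-voom (0.137), with genes under a mean of 5 CPM left out (0.101) and with the replicate number as a block (0.118). *Gpnmb* (ENSMUSG00000029816, chromosome 6, 49013426 to 49047863, + strand), which is induced under lysosomal stress through MiT/TFE factors, was at 12.2, 17.0 and 7.91 CPM against 22.1, 12.7 and 71.1 CPM. Again F4/80low replicate 3 was the highest by a wide margin, and the other libraries of the subsets overlapped. The log2 fold change of -1.51 ± 0.58 (adjusted p = 0.0630, edgeR) became -0.49 (adjusted p = 0.275) without that library. The call was also lost without F4/80high replicate 1 (0.130) or 3 (0.166), under limma-voom (0.156) and with the block (0.169). The lower levels of *Spp1* and *Gpnmb* in F4/80high MAMs thus depended most on this library.

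*Lpl* (ENSMUSG00000015568, chromosome 8, 69284603 to 69360100, + strand), the gene of the lipase that frees fatty acids from lipoproteins, was at 64.0, 76.7 and 80.3 CPM in F4/80high and at 84.2, 83.0 and 79.5 CPM in F4/80low libraries. The libraries overlapped, and the log2 fold change was -0.16 ± 0.10 (adjusted p = 0.224, edgeR), with a 95% interval from -0.38 to 0.07. A difference of 2-fold in either direction thus lay outside the interval. Without F4/80high replicate 3 the gene was called, at -0.23 (adjusted p = 0.0950), and without F4/80high replicate 1 the change was -0.07 (0.612).

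**Figure D2:**
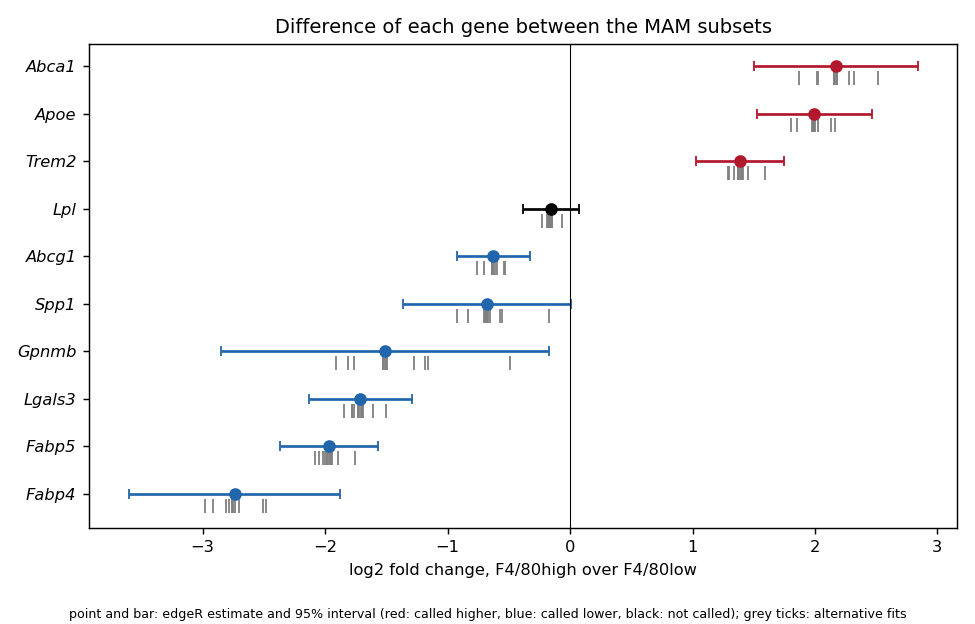
Log2 fold change of F4/80high over F4/80low MAMs (horizontal axis) of each gene with its 95% interval from edgeR, red for called higher, blue for called lower and black for not called, with grey ticks below each point for the alternative fits. The intervals of Abca1, Apoe and Trem2 lie above 0, those of Fabp4, Fabp5, Lgals3, Gpnmb and Abcg1 below it, and those of Spp1 and Lpl include it.

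The order of the levels, compared between genes as CPM per kb of the canonical transcript, differed between the subsets, with the limit on the length of *Apoe* given above. In F4/80high MAMs it ran from *Apoe* (5038) through *Trem2* (276), *Spp1* (241 to 259 over the libraries), *Lgals3* (187), *Abca1* (49.4), *Abcg1* (20.4), *Fabp5* (18.2), *Lpl* (17.9) and *Gpnmb* (3.23) to *Fabp4* (0.348). The libraries of *Trem2* and *Spp1* overlapped, as did those of *Abcg1* and *Fabp5* and those of *Fabp5* and *Lpl*, so these neighbors did not differ beyond their spread. In F4/80low MAMs *Apoe* was again first (1264), but *Lgals3* (613) and *Spp1* (400) stood before *Trem2* (105), followed by *Fabp5* (71.2), *Abcg1* (31.5), *Lpl* (20.0), *Abca1* (11.0), *Gpnmb* (9.23) and *Fabp4* (2.39). Overlapping neighbors there were *Lgals3* and *Spp1*, *Trem2* and *Fabp5*, and *Abca1* and *Gpnmb*.

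F4/80low replicate 3 was the highest of its subset for 8 of the 10 genes, all but *Lpl* and *Fabp5*. Its level relative to the mean of the other F4/80low libraries was 4.09 for *Gpnmb*, 2.25 for *Spp1*, 1.81 for *Abca1* and 1.46 for *Trem2*. It was also the highest for *Hilpda* (3.11 times the others), a lipid droplet protein gene induced by hypoxia and fatty acids, *Cd36* (2.67 times), a fatty acid translocase, and *Plin2* (1.73 times), which encodes a lipid droplet coat protein. Of the 92 genes of the pathway lists described next, 49 were highest in this library, and of all 13759 genes 4347 (31.6%) were. The part of this library in the spread of the subset is given by the values without it, and its cause was not tested.

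Over the 6 libraries, the genes whose log2 CPM followed *Trem2* most closely, among 8908 genes with a mean of at least 10 CPM, were *Mpp1* (r = 0.998), *Blvrb* (0.998), *Ctsb* (0.997), *Folr2* (0.997) and *Cav2* (0.997). *Blvrb* encodes a biliverdin reductase of heme breakdown, *Ctsb* the lysosomal protease cathepsin B and *Folr2* a folate receptor of resident-type macrophages. *Folr2* differed most between the subsets of these 5, at 79.6 ± 21.3 against 4.70 ± 3.22 CPM (log2 fold change 4.11 ± 0.43, or 4.78 without F4/80low replicate 3), and *Cav2* least, at 34.8 ± 1.32 against 27.3 ± 1.64 CPM. Of the 10 genes, *Abca1* (r = 0.987) and *Apoe* (0.986) followed *Trem2*, while *Fabp5* (-0.96), *Fabp4* (-0.89), *Lgals3* (-0.88) and *Abcg1* (-0.78) ran against it. These coefficients span 2 groups of 3 libraries that differ as a whole and are given as a description. Within the subsets, the closest pairs were *Apoe* with *Abcg1* (r = 0.985), *Gpnmb* with *Lgals3* (0.963) and *Gpnmb* with *Spp1* (0.928). These were picked as the highest and are likewise a description of few points. F4/80low replicate 3 was 4.09, 2.25 and 1.48 times the mean of the other F4/80low libraries for *Gpnmb*, *Spp1* and *Lgals3*. The correlations without it were not computed.

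Genes of the surrounding pathways were followed in 6 lists with 96 genes, of which 92 were in the table. Each list was set beside all genes tested, of which 27.8% were called higher and 27.1% lower, with a median log2 fold change of 0.01.

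Of 13 TREM2 signalling genes, 3 rose, 5 fell and 5 were not called, with a median log2 fold change of -0.05. The kinase and the phospholipase that act below DAP12 fell: *Syk* from 437 ± 34.1 CPM in F4/80low to 220 ± 26.4 CPM in F4/80high MAMs (log2 fold change -0.99 ± 0.11, adjusted p = 0.000206, edgeR) and *Plcg2* from 433 ± 21.5 to 261 ± 12.2 CPM (-0.73 ± 0.08, 0.000215). *Nfatc1*, a calcium-dependent transcription factor gene, fell by 0.61 on the log2 scale, and with *Tyrobp* and the adaptor gene *Grb2* these made up the 5. The rises were *Adam17* (0.43 ± 0.11) and *Adam10* (0.24 ± 0.09), which encode the sheddases that can cleave TREM2 from the surface, and *Vav1* (0.23 ± 0.08), none of which reached 2-fold. The number of rises depended on single libraries. It was 1 without F4/80high replicate 1, F4/80high replicate 3 or F4/80low replicate 1, and 5 without F4/80high replicate 2. The call of *Adam10* was lost without any of those first 3 libraries, and that of *Vav1* without any of those 3 or F4/80low replicate 3.

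Of 15 LXR pathway genes in the table, 3 rose and 6 fell, with a median of -0.25. Both LXR genes themselves were lower in F4/80high MAMs. *Nr1h3* (LXRα) was at 17.3 ± 3.83 against 32.2 ± 9.96 CPM (-0.89 ± 0.25, adjusted p = 0.0175, edgeR) with overlapping libraries, and *Nr1h2* (LXRβ), outside the naming rule and chosen with its values known, was at 82.8 ± 3.71 against 122 ± 3.95 CPM (-0.56 ± 0.08, 0.00054). Their partner *Rxra* rose, at 83.9 ± 12.8 against 55.0 ± 3.50 CPM (0.61 ± 0.12, 0.00348). Among LXR targets, *Scd1*, a fatty acid desaturase gene (1.28 ± 0.30), and *Mylip*, which encodes a ubiquitin ligase (0.43 ± 0.11), rose with *Abca1* and *Apoe*. *Smpdl3a*, a phosphodiesterase gene, fell with *Abcg1*, from 230 ± 31.5 to 47.2 ± 5.57 CPM (-2.28 ± 0.13, 6.81e-06), as did *Apoc2*, the cofactor of lipoprotein lipase (-0.91 ± 0.25). *Abcg4* was not in the table.

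Of 17 genes of PPAR, fatty acid uptake and lipid droplets in the table, 2 rose and 9 fell, with a median of -0.34, the lowest of the 6 lists. The falls accompanied those of *Fabp4* and *Fabp5*. The receptor genes *Pparg* (-0.11 ± 0.17, adjusted p = 0.634, edgeR) and *Ppard* (-0.24 ± 0.11, 0.104) were not called. *Dgat2*, which makes triglycerides, was at 2.08 ± 0.67 against 17.7 ± 0.98 CPM (-3.09 ± 0.23, adjusted p = 2.36e-05, edgeR). *Hilpda* was at 7.82 ± 1.04 against 43.5 ± 32.8 CPM (-2.48 ± 0.52, 0.00473) and *Cd36* at 22.7 ± 5.88 against 59.0 ± 37.0 CPM (-1.38 ± 0.40, 0.0212). Both kept their call without F4/80low replicate 3, with smaller changes of -1.71 and -0.74. *Acsl3*, a fatty acyl-CoA synthetase gene, rose (0.53 ± 0.15). The other rise was *Angptl4*, at low levels of 2.87 ± 0.54 against 0.97 ± 0.52 CPM (1.57 ± 0.42, 0.0155). *Plin2*, at 202 ± 42.9 against 258 ± 90.7 CPM, was not called (-0.35 ± 0.24, 0.268), and without F4/80low replicate 3 the difference was -0.03 (0.895), while it was called without F4/80low replicate 2 (-0.54, 0.0937). *Mgll*, *Gpihbp1* and *Fabp3* were not in the table.

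Of 15 genes of cholesterol uptake, storage and lysosomal release, 6 rose and 6 fell, with a median of 0.07. *Ch25h*, which makes the LXR ligand 25-hydroxycholesterol, rose from 6.63 ± 0.73 to 102 ± 21.8 CPM, with a log2 fold change of 3.94 ± 0.18 (adjusted p = 3.06e-06, edgeR). *Osbpl1a*, an oxysterol-binding protein gene (1.27 ± 0.11), and *Msr1*, the scavenger receptor A gene (0.72 ± 0.17), also rose. *Olr1*, the gene of a receptor for oxidized LDL, fell by 3.19 on the log2 scale, from 26.2 ± 3.31 to 2.87 ± 1.17 CPM. *Cyp27a1*, the sterol 27-hydroxylase gene, was called lower (-0.51 ± 0.21, 0.08), but not without F4/80high replicate 1 or any of the F4/80low replicates, and was at -0.27 (0.0742) without F4/80high replicate 2.

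Of 18 other genes often listed for lipid-associated macrophages, 6 rose and 8 fell, with a median of 0.01. The rises were led by lysosomal genes, as *Cd63*, a tetraspanin gene, rose from 53.8 ± 17.4 to 259 ± 9.04 CPM (2.27 ± 0.22, adjusted p = 8.66e-05, edgeR), and the cathepsin genes *Ctsd* (1.65 ± 0.18) and *Ctsb* (1.43 ± 0.15) rose with it. The falls were led by *Itgax*, which encodes CD11c, from 887 ± 105 to 106 ± 32.6 CPM (-3.06 ± 0.23, 2.62e-05), and *Clec7a*, the dectin-1 gene, from 556 ± 187 to 122 ± 40.0 CPM (-2.19 ± 0.29, 0.000472). *Cd9*, another tetraspanin gene of the state, fell by 0.71 on the log2 scale.

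Of 14 partners of osteopontin, galectin-3 and GPNMB, 8 rose and 4 fell, with a median of 0.24, and the rises numbered 5 without F4/80high replicate 1. The osteopontin receptors parted. *Itga9* (integrin α9) rose from 19.0 ± 4.06 to 116 ± 18.7 CPM (2.60 ± 0.18, adjusted p = 1.55e-05, edgeR) and *Itgb5* (integrin β5) from 466 ± 79.2 to 747 ± 50.4 CPM (0.68 ± 0.13, 0.00349). *Cd44* fell from 604 ± 62.7 to 266 ± 14.2 CPM (-1.18 ± 0.10, 4.89e-05). *Itgb3* (integrin β3) fell by 2.83 on the log2 scale. *Mertk*, an efferocytosis receptor gene whose product binds galectin-3, rose from 24.7 ± 1.16 to 86.8 ± 10.6 CPM (1.81 ± 0.11). *Tfeb*, which encodes a lysosomal MiT/TFE factor, fell from 78.4 ± 1.57 to 39.2 ± 2.18 CPM (adjusted p = 3.21e-05, edgeR). The other MiT/TFE genes of the list did not fall. *Tfec* (0.54 ± 0.16, 0.0237) and *Tfe3* (0.22 ± 0.09, 0.0630) were called higher, and *Mitf* was not called (-0.03 ± 0.15, 0.893).

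**Figure D3:**
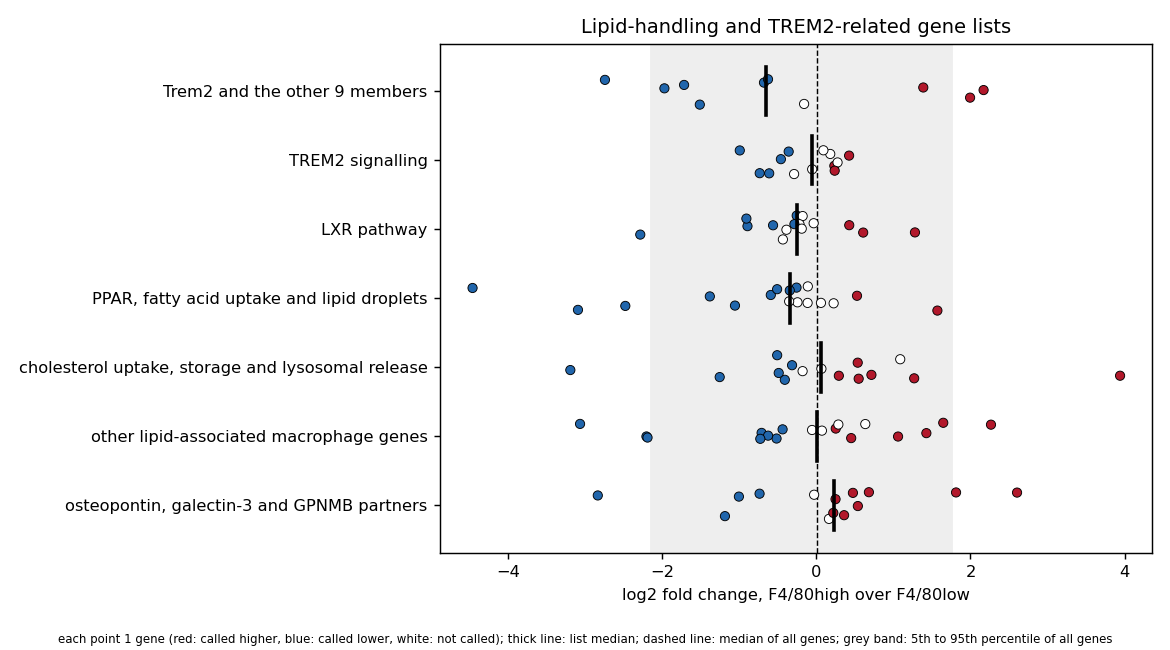
Log2 fold change of F4/80high over F4/80low MAMs (horizontal axis) for the 10 genes and the 6 pathway lists, 1 point per gene, red for called higher, blue for called lower and white for not called, with the list medians as thick lines. The grey band holds the 5th to 95th percentile of all genes and the dashed line their median of 0.01, and each list has points on both sides of it.

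The subsets also differed in markers of several other cell types, some of which a lin- CD45+CD11b+ gate is meant to exclude. Summed over 12 macrophage markers, the level was 20220 to 26460 CPM in F4/80high and 11620 to 14860 CPM in F4/80low libraries, with 7 called higher and none lower. Of 8 classical monocyte markers, 7 were called lower and 1 higher, *F13a1*, and the sums were 908 to 1208 against 2239 to 2556 CPM. Of 8 dendritic cell markers, 7 were called lower, with sums of 11.5 to 19.0 against 398 to 714 CPM. In the same comparison, 6 of the 10 genes were called lower and 3 higher. Of all genes tested, 27.1% were called lower and 27.8% higher, which is the share to set beside each of these counts. Hepatic stellate cell and fibroblast markers (6 of 8 in the table, 4 called higher) summed to 261 to 559 against 46.2 to 153 CPM. Within the F4/80high subset this sum was highest in replicate 2, where most of it was *Col1a2* at 336 CPM. Of 8 Kupffer cell markers, 4 were called higher and 3 lower, with sums of 81.9 to 109 against 60.6 to 73.8 CPM, and most of the sum in F4/80high MAMs was *Folr2*, while *Clec4f* was at 1.28 and 0.512 CPM. Neutrophil markers (6 of 8 in the table, 5 lower) summed to 73.9 to 105 against 95.9 to 151 CPM. Most of the F4/80high sum was *Csf3r*, which was not called, and the other 5 genes summed to 0.630 to 1.14 against 11.8 to 84.3 CPM. Endothelial markers (6 of 8, 1 higher, 4 lower) summed to 15.7 to 21.7 against 44.8 to 46.5 CPM. The tumor epithelium markers *Epcam* and *Cdh1* (2 of 8 in the table, both lower) summed to 8.30 to 11.8 against 197 to 281 CPM. Most of the F4/80low sum was *Cdh1*, at 234 ± 39.3 CPM. None of the 4 keratin genes was in the table, nor were *Cldn4* and *Cldn7*. This list thus rested on *Epcam* and *Cdh1* alone, and which cells expressed them was not tested. Hepatocyte markers (3 of 8, none called) summed to 1.65 to 9.81 against 1.82 to 4.88 CPM. T, B and NK lymphocyte markers (7 of 8, 2 lower) summed to 5.07 to 18.6 against 4.93 to 22.3 CPM. No marker in the table was at 0 in every F4/80high library. The part of these markers' cells in the changes of the 10 genes was not tested.

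**Figure D4:**
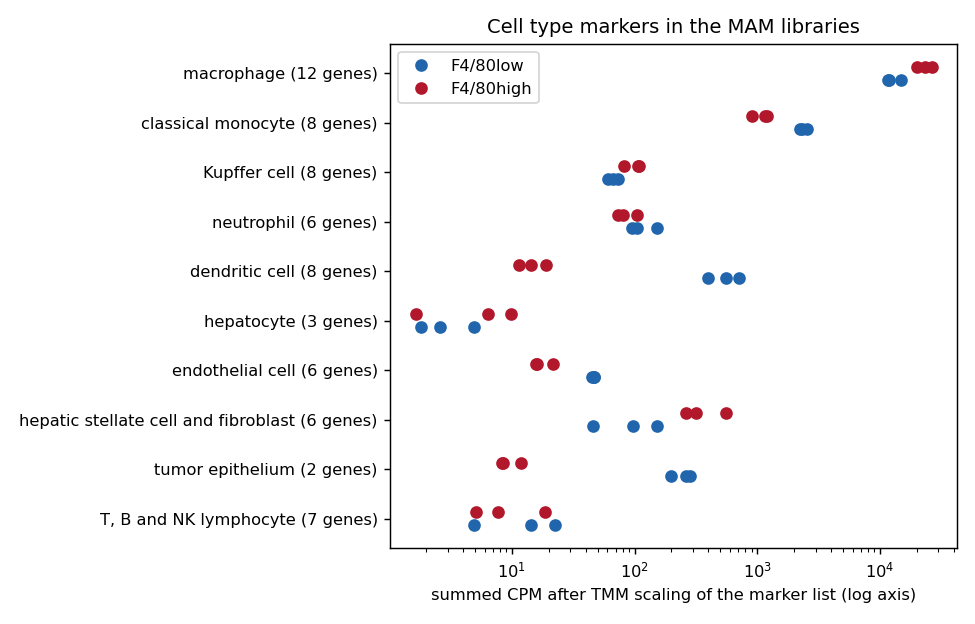
Summed CPM after TMM scaling of each marker list (horizontal log axis) in the 3 F4/80low (blue) and 3 F4/80high (red) libraries. The dendritic cell, tumor epithelium (Epcam and Cdh1 only) and classical monocyte sums are separated with F4/80low above. The macrophage and stellate cell sums are separated with F4/80high above, and the hepatocyte and lymphocyte sums overlap.

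In the lymphocytes of the same model, each library sorted from 6 to 8 pooled samples, these genes were mostly scarce. These libraries were made with another kit and counted in another table, with totals from 8795721 to 14386834, so they were not tested against the MAMs. *Trem2* had 0 counts in 11 of 12 libraries and 1 count in the remaining library, of MFL ILC1, where 3 counts would be 0.209 to 0.341 CPM. *Fabp4* had 0 counts in all 12, and *Lpl* in 9 of 12. The cholesterol exporters were the clearest exception. *Abcg1* was present in every library. In MFL it was at 90.7 ± 11.0 CPM (SD, n = 3) in NK cells and at 143 ± 15.9 CPM in ILC1s, while the LM subsets had 151 ± 52.3 CPM (CD49a-) and 123 ± 24.5 CPM (CD49a+). *Abca1* was at 65.7 ± 15.1, 69.9 ± 17.0, 43.4 ± 4.21 and 49.4 ± 6.22 CPM in the same order. *Apoe* averaged 21.1 ± 14.7 and 28.1 ± 13.5 CPM in the MFL populations and 1.92 ± 1.74 and 2.54 ± 3.83 CPM in LM CD49a- and CD49a+ NK cells, with 0 counts in 2 LM libraries. *Lgals3* was at 6.73 ± 1.75 CPM in MFL NK cells, 13.5 ± 4.34 in ILC1s and 30.2 ± 4.60 in LM CD49a+ NK cells. In LM CD49a- NK cells it was at 3.35 ± 5.81 CPM, with 0 counts in 2 libraries. *Gpnmb* had 0 counts in 5 of 12 libraries and at most 7.27 CPM. *Spp1* spread from 0 to 68.2 CPM and *Fabp5* from 0.0779 to 32.2 CPM over the 12 libraries, with differences between replicates as wide as those between populations.

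**Figure D5:**
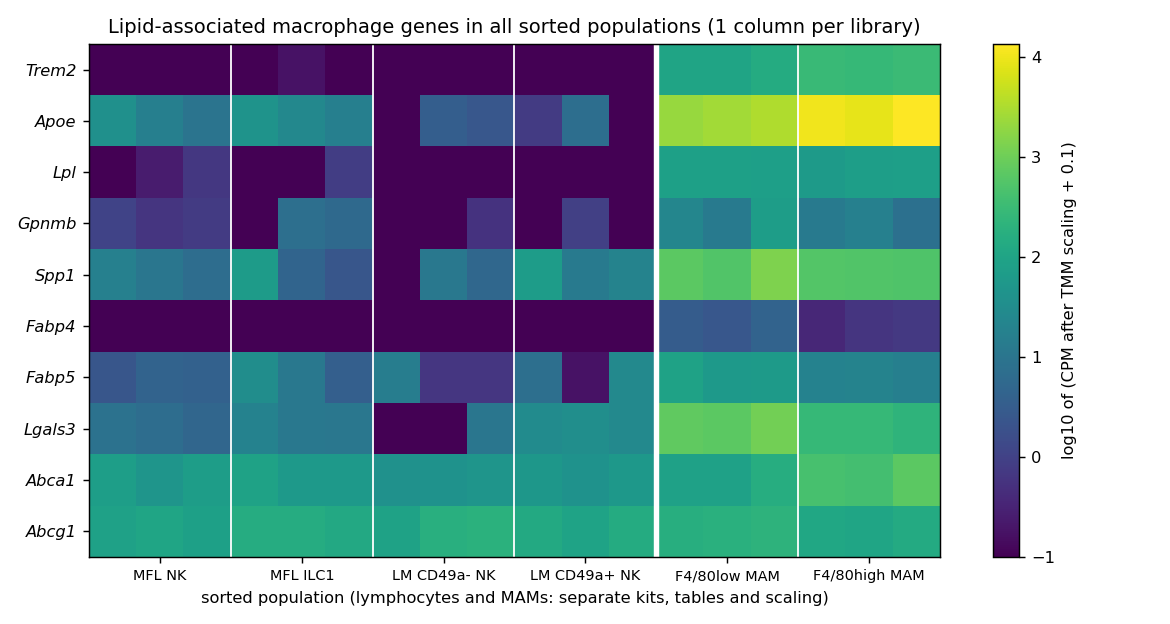
Log10 of CPM after TMM scaling plus 0.1 (color) of the 10 genes (rows) in the 18 libraries (columns), grouped by sorted population. The lymphocyte and MAM tables were scaled separately, and Trem2, Fabp4 and Lpl are dark in nearly all lymphocyte columns while Abca1 and Abcg1 are not.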

How the data were processed

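Bulk RNA-Seq of sorted MAMs (6 libraries) and type 1 lymphocytes (12 libraries) was used. The authors deposited estimated counts per gene, as whole numbers without normalization. For the lymphocytes they used trim-galore, Salmon 1.5.0 with GENCODE M27 on GRCm39, and tximport. For the MAMs, the submitters' processing notes name Trim Galore, Salmon 1.10.0, R 4.3.1 and DESeq2 1.40.2, poly(A) libraries were made with a directional kit, and the filter and strand setting of the counting are not given in the sources used here. The lowest total of a gene in the MAM table is 37 counts, so genes had been filtered before.

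Gene IDs were named from GENCODE vM39 on GRCm39, which held 13726 of 13759 and 53700 of 54309 IDs. In it, 6 of the 10 genes overlap an antisense gene and 2 a gene on their own strand (*Spp1* and *Abcg1*), so shared reads are possible. R 4.3.3, edgeR 4.0.16, limma 3.58.1 and DESeq2 1.42.0 were used, with Python 3.11.15 and matplotlib 3.10.9 for the plots. filterByExpr kept all 13759 genes, including all 10 members. The 3 F4/80high and 3 F4/80low libraries were compared by edgeR's quasi-likelihood test with TMM and no covariate, checked first on simulated counts. The standard error is the log2 fold change divided by the square root of F. RLE scaling, DESeq2, limma-voom, other filters, a replicate block and leaving out each library were tried. CPM per kb used the canonical transcript length, and correlations log2 CPM with a prior count of 2. The floor of 3 counts covers counting error only. LM CD49a+ NK libraries carry ILC1 in their titles and were grouped by their cell type label.

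The members and lists were chosen with earlier results of these data known. All 10 members are named. Per pathway list, the called genes with the 3 largest changes in each direction at a mean of at least 5 CPM are named, with the 5 genes most like *Trem2*. Other genes named with values (*Tyrobp*, *Nr1h2*, *Plin2*, *Pparg*, *Ppard*, *Angptl4*, *Tfec*, *Tfe3* and *Mitf*, and markers or lower-ranked genes named for counts) were chosen after their values were seen. A gene that this rule names and a promoter are not reported here.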

Additional observations from a re-analysis of the deposited data

Results flagged for a closer look

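Among the lymphocytes, which enter no comparison of the report, *Lgals3* averaged 13.5 CPM in MFL ILC1, with each of the 3 libraries above each of the 3 MFL NK libraries. *Lgals3* averaged 30.2 CPM in LM CD49a+ NK cells, again with all 3 libraries above those of MFL NK cells, which averaged 6.73 CPM. *Abcg1* averaged 143 CPM in MFL ILC1, with all 3 libraries above those of MFL NK cells at 90.7 CPM. These levels are descriptions of 3 libraries each, and the differences were not tested.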

How the results depend on the processing

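*Trem2*, *Apoe*, *Abca1*, *Fabp5*, *Lgals3* and *Abcg1* kept their direction and call under all 12 alternatives, and *Fabp4* under the 11 that included it. No log2 fold change of a member changed sign. The number of the 10 genes called higher was 3 throughout, and the number called lower ranged from 4 to 6, with the losses in *Spp1* and *Gpnmb* given with their values in the report. With genes under a mean of 5 CPM left out, 1 gene of the PPAR and lipid droplet list was called higher in place of 2. With 1 library left out, the rises of the TREM2 signalling list ranged from 1 to 5 and those of the osteopontin, galectin-3 and GPNMB partners from 5 to 8. The fit without a filter was identical to that reported, since the filter removed no gene.

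Whether the replicate numbers pair the samples is not stated, and correlations over 3 libraries a subset cannot decide it. The correlations of same-numbered deviations from the group means were 0.172, -0.01 and 0.03. Those of libraries with different numbers ran from -0.123 to 0.091. With the replicate number as a block, 3791 genes were called higher and 3721 lower in place of 3821 and 3734, and *Trem2* had a log2 fold change of 1.41 (adjusted p = 0.000149, edgeR). Depth limited *Fabp4* most, with 6 to 19 counts in the F4/80high libraries. With 3 libraries a subset, the spread of each gene rests on few values.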
